A study of Mus musculus with 4 samples.

Results

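Aldehyde dehydrogenases, aldo-keto reductases and alcohol dehydrogenases were described at the level of translation in the dorsal root ganglia of the mouse. The members are every gene whose symbol begins with Aldh, Akr or Adh followed by a digit, leaving out 1 name that marks a pseudogene. This gave 44 of the 48431 genes in the table, of which 21 are aldehyde dehydrogenases, 17 are aldo-keto reductases and 6 are alcohol dehydrogenases. The ganglia, clusters of sensory neuron cell bodies and their glia, came per the labels from male wild-type (WT) mice of the SW strain given methylglyoxal (MGO) by intraperitoneal injection at 2 mg/kg for 6 days. Against this treatment label, the protocol text names saline. The labels state no age, and they do not say whether ganglia of several mice were pooled. The design text names a comparison of RNA-seq with ribosome profiling. 1 group of 4 footprint libraries was analysed and no control libraries, so nothing below is an effect of methylglyoxal: the comparisons are between genes within a library and between libraries.

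These enzymes handle reactive carbonyl compounds. Aldehyde dehydrogenases oxidise aldehydes to acids with NAD or NADP through a catalytic cysteine, aldo-keto reductases reduce aldehydes and ketones to alcohols with NADPH, and alcohol dehydrogenases interconvert alcohols and aldehydes through a zinc ion. Methylglyoxal is cleared mainly by the glutathione-dependent glyoxalases, and the aldo-keto reductases Akr1a1 and Akr1b3 are known to reduce it. In nervous tissue the same families are known for removing lipid-derived aldehydes, making retinoic acid, closing the breakdown of GABA and running the aldose reductase step of the polyol pathway.

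A ribosome footprint is the stretch of mRNA covered by 1 ribosome, here RNA of 28 to 34 nt, so a gene's count follows the number of ribosomes on its message. The libraries held 3487636, 2633869, 2610536 and 3753017 reads in replicates 1 to 4. Values are in CPM, the reads of a gene in every 1000000 of its library, and a count of 0 allows up to 3 reads, or 0.860, 1.14, 1.15 and 0.799 CPM. Replicates 1 and 2 differed by little more than counting noise, with a chi-square of 1.03 per degree of freedom over 12122 genes with enough reads, as did replicates 3 and 4 with 1.05, against 3.27 to 4.01 between libraries of different pairs. Each pair was therefore counted once, and the means ± SD that follow use 1 value per pair (n = 2). Such an SD can lie below the spread of the 4 libraries. For Akr1a1 it was 0.955 CPM, against 6.04 CPM over the 4 libraries. Whether replicates are separate animals is not in the labels, and the spread may be technical. Markers of ganglion cells were present: all 12 neuronal, 8 satellite glial and 10 Schwann cell markers were detected, with summed levels of 11459, 9924 and 24456 CPM. They were not alone. All 8 matrix fibroblast and 10 skeletal muscle markers were detected too, with sums of 22924 and 3113 CPM. So were 7 of 8 adipocyte and 6 of 8 spinal cord markers, with sums of 345 and 84.0 CPM. Of all protein-coding genes, 63.8% reached the same mean of 1 CPM, so 6 of 8 is near that share. The spinal cord sum was mostly Gfap with 41.2 and Slc1a2 with 23.8 CPM. Aqp4 had 10.3 and Slc6a5 4.37 CPM, and Mog, Mobp, Opalin and Chat had 2.09 CPM or less. Of 8 liver markers, 2 reached 1 CPM, and Apoa2 and Cps1 were at 0.

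The sequence around the catalytic cysteine shows how far footprints of related aldehyde dehydrogenases can be told apart. The stretches below are 45 bases of coding sequence (GENCODE M21, GRCm38), with the cysteine codon in capitals. They are given for the mitochondrial pair and for the ALDH1A group, whose members are compared in the results that follow. The Aldh2 stretch lies at chr5:121572781-121572825 in exon 9, minus strand, and that of Aldh1b1 at chr4:45803403-45803447 in exon 2, plus strand.
Aldh2: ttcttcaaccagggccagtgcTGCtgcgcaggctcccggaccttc
Aldh1b1: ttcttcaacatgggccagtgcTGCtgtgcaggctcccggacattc
Aldh1a1: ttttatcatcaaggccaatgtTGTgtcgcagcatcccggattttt
Aldh1a2: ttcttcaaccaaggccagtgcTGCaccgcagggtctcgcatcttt
Aldh1a3: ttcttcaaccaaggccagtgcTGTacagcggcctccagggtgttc
Aldh1a7: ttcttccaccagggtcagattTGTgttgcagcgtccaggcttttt
The Aldh1b1 stretch differed from that of Aldh2 at 4 of its bases, Aldh1a2 at 8, Aldh1a3 at 11, and Aldh1a1 and Aldh1a7 at 16 each. None of the 26 windows of 28 bases that hold the codon, 28 being the shortest footprint selected, occurred in a transcript of another gene for any of these 6 genes. This did not hold for all aldehyde dehydrogenases. All 26 windows of Aldh3b2, Aldh3b3 and Aldh4a1, and 16 of those of Aldh3b1, occurred in another gene. Over the whole coding sequence, 21 members shared no such window with another annotated gene, among them Aldh2, Akr1a1, Adh5, Aldh1a2 and Aldh1b1, and 23 shared some.

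Of the 44 members, 27 were detected, meaning a mean of at least 1 CPM. Among all protein-coding genes of the table the same share was 63.8%, close to that of the members. By family, 18 of 21 aldehyde dehydrogenases, 7 of 17 aldo-keto reductases and 2 of 6 alcohol dehydrogenases passed. Of the 44 members 18 reached 10 CPM, a share close to that of all protein-coding genes, 8673 of 21664. The families summed to 1099, 1128, 979 and 999.7 CPM in replicates 1 to 4, a mean of 1051 ± 88.0 CPM or 0.105% of the reads. Aldehyde dehydrogenases made up 754 ± 73.0 CPM of this sum, aldo-keto reductases 219 ± 9.49 CPM and alcohol dehydrogenases 78.9 ± 5.51 CPM. Aldh2 alone carried 26.5% of the summed level and the 4 highest members 51.9%, so most members contributed little.

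**Figure D1:**
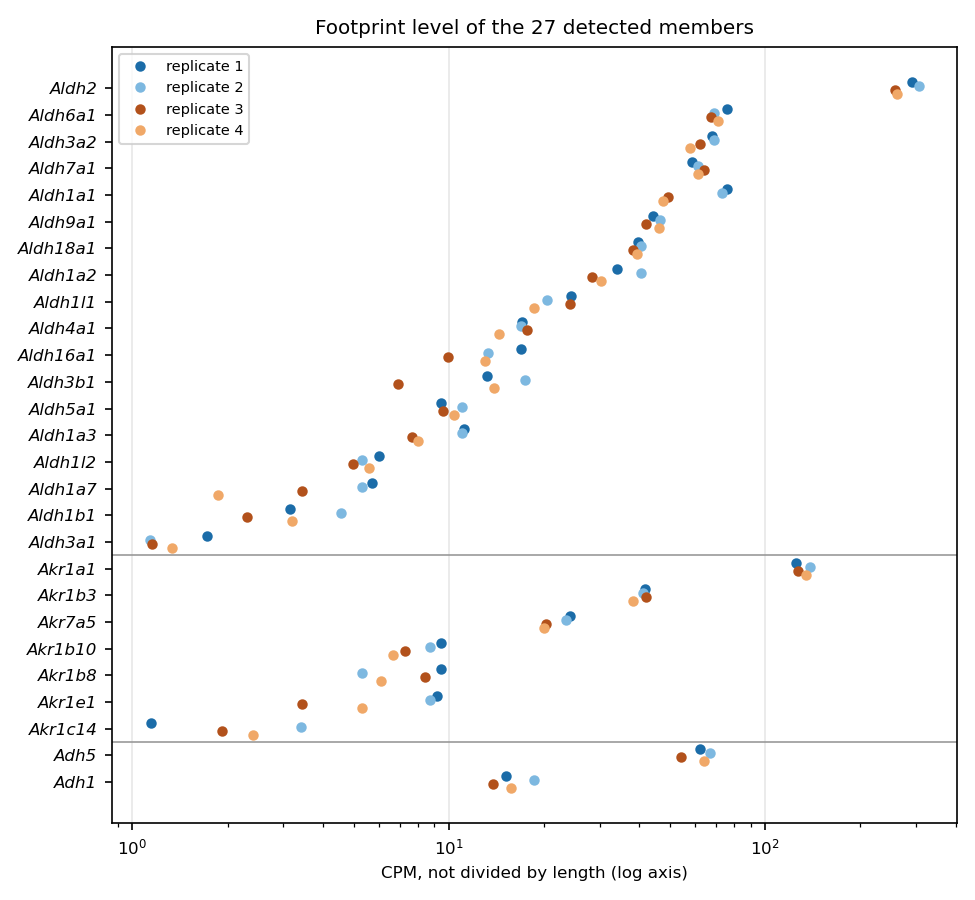
Level of the 27 detected members in each library, in CPM not divided by gene length (log axis), as 1 point per replicate, with aldehyde dehydrogenases above, aldo-keto reductases next and alcohol dehydrogenases at the bottom. Aldh2 lies at 258 to 306 CPM, above every other member in each library, and Aldh1a1 shows replicates 1 and 2 apart from 3 and 4.

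Because a longer message holds more ribosomes at the same density, members were compared with each other only per kb of coding length. On that scale Aldh2 led with 179 ± 18.03 CPM per kb, followed by Akr1a1 with 135 ± 0.979, Adh5 with 55.1 ± 3.37 and Aldh6a1 with 44.1 ± 1.29 CPM per kb. The ranges of these 4 genes over the libraries did not overlap between neighbours. Akr1b3, Aldh1a1, Aldh3a2 and Aldh7a1 came next at 43.0 to 38.0 CPM per kb, and from Aldh6a1 to Aldh7a1 no neighbours were separated beyond their ranges. Below them, Aldh9a1 at 28.9 CPM per kb was apart from both neighbours, and Aldh1a2 and Akr7a5 at 21.5 and 19.96 CPM per kb overlapped. Aldh18a1 at 16.6 and Adh1 at 14.1 CPM per kb overlapped as well. A long run from Aldh4a1 at 9.78 to Aldh16a1 at 5.53 CPM per kb held 9 genes in which every pair of neighbours overlapped. Aldh1a7, Akr1c14, Aldh1b1 and Aldh1l2 lay between 2.72 and 1.98 CPM per kb, and Aldh3a1 was lowest with 0.982. Over the order as a whole, 17 of 26 neighbouring pairs overlapped. The median of the detected members was 9.78 CPM per kb, beside 11.2 for the 13820 detected coding genes, and 13 of the 27 lay above the latter. Aldh2 stood at the 96.4th percentile of detected coding genes per kb, Akr1a1 at the 94.6th and Akr1b3 at the 81.9th.

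**Figure D2:**
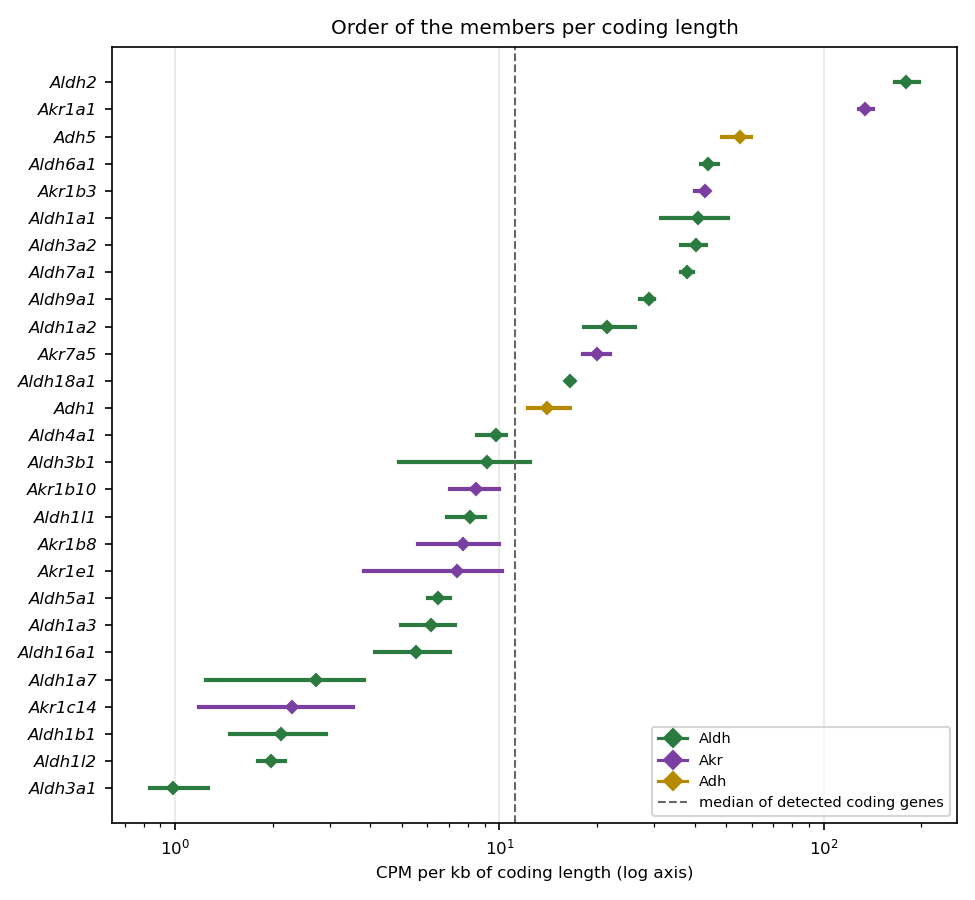
Order of the 27 detected members by CPM per kb of coding length (log axis). Diamonds are means, lines run from the lowest to the highest of the 4 libraries, colours give the family, and the dashed line is the median of detected coding genes, 11.2 CPM per kb. Aldh2 and Akr1a1 stand apart at the top, and most neighbours in the middle overlap.

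Of the mitochondrial pair Aldh2 and Aldh1b1, nearly all footprints were on Aldh2. Aldh2, on chromosome 5, oxidises acetaldehyde and lipid-derived aldehydes such as hydroxynonenal. Its level was 292, 306, 258 and 261 CPM in replicates 1 to 4, a mean of 279 ± 28.1 CPM from 3475 reads. Replicates 1 and 2 were both higher than replicates 3 and 4, by 1.15 times. Aldh1b1, a mitochondrial relative encoded by a single coding exon on chromosome 4, had 3.15, 4.56, 2.30 and 3.20 CPM, or 41 reads in all. The pooled reads per kb of Aldh2 were 84.8 times those of Aldh1b1 (95% interval 62.3 to 118, exact binomial, counting error only). The coding sequences are 71.8% identical and share no run longer than 20 bases, so no window of 28 bases occurs in both.

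For each of 21 gene pairs, the difference of log2(CPM per kb + 1) was taken within each library, a scale that understates the gap to low genes. All 21 differences had the same sign in 4 of 4 libraries and a mean larger than their SD. The two-sided exact sign-flip permutation test cannot go below p = 0.5 over 2 pair means, and every contrast had this value, also after Benjamini-Hochberg adjustment over the 21. The choice of length mattered most: 16 of the 21 moved by more than 1.5-fold when exon length replaced coding length. Exon length is the union of a gene's exons over all annotated transcripts and includes untranslated sequence. The contrasts are reported by size, spread and the interval of their read ratio.

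Akr1a1 led the aldo-keto reductases. Akr1a1, the aldehyde reductase of chromosome 4, also makes the precursor of vitamin C in mice. It had 126, 138, 127 and 134 CPM, a mean of 131 ± 0.955 CPM and 59.98% of its family's sum. The libraries overlapped without order. Aldh2 exceeded Akr1a1 by 0.41 ± 0.13 on the log2 scale and by 1.33 times in pooled reads per kb (1.25 to 1.41). Akr1b3, the aldose reductase that turns glucose into sorbitol, lies on chromosome 6. Its values of 41.9, 41.0, 42.1 and 38.1 CPM gave 40.8 ± 0.929 CPM. Akr1a1 exceeded it by 1.62 ± 0.02 on the log2 scale and 3.14 times in pooled reads per kb (2.84 to 3.48).

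The value of Akr1b3 carries a limit of sequence. Of its 921 coding windows, 94.2% also occur in 12 other annotated genes, and 90.9% occur in the processed pseudogene Gm6644 alone. The 10 of these genes present in the table held 4, 2, 2 and 2 reads in replicates 1 to 4, against 146, 108, 110 and 143 for Akr1b3. No source used here gives the rule for reads with several equal matches. The longest stretch of Akr1b3 in which no window is shared is 55 bases, across exons 8 and 9 between chr6:34306580 and chr6:34308990, minus strand, and is shown because only footprints within it and a few like stretches are Akr1b3's own.
Akr1b3: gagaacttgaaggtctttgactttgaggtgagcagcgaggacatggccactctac

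The relatives of Akr1b3 beside it on chromosome 6 were lower. Akr1b8 had 9.46, 5.32, 8.43 and 6.13 CPM and Akr1b10 had 9.46, 8.73, 7.28 and 6.66 CPM. Both are relatives of aldose reductase, and their ranges overlap. Akr1b3 exceeded Akr1b8 by 2.36 ± 0.04 (2.04 to 2.74 over single libraries) and Akr1b10 by 2.23 ± 0.21 on the log2 scale of CPM per kb. Divided by exon length in place of coding length, these differences fell to 0.02 and 0.85, so the gap to Akr1b8 depends on the length used. Akr1b7, the fourth gene of the cluster, had 1 read. Akr1b8 and Akr1b10 are 85.4% identical in coding sequence and share a run of 80 bases across exons 5 and 6 of Akr1b8, from which a footprint can belong to either. They are told apart elsewhere, as in these 60 bases of exon 4 (chr6:34358131-34358190 for Akr1b8 and chr6:34390055-34390114 for Akr1b10, both plus strand), where capitals mark the 18 differences.
Akr1b8: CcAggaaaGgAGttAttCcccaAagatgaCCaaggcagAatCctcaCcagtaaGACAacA
Akr1b10: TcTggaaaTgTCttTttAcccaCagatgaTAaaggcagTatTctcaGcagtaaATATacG
Of the 921 coding windows of each, 112 were common to both genes.

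Akr7a5, which reduces succinic semialdehyde and the dialdehyde of aflatoxin, had 24.1, 23.5, 20.3 and 19.98 CPM, a mean of 22.0 ± 2.59 CPM. Replicates 1 and 2 were higher than 3 and 4. Akr1a1 exceeded it by 2.70 ± 0.15 on the log2 scale of CPM per kb. Akr1e1, a reductase of anhydrofructose, had 9.18, 8.73, 3.45 and 5.33 CPM. The pair means differed 2.04-fold, with both values of replicates 1 and 2 above the others, but they rest on 32, 23, 9 and 20 reads.

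The steroid-type reductases were almost without footprints. Of the 10 genes Akr1c6, Akr1c12, Akr1c13, Akr1c14, Akr1c18, Akr1c19, Akr1c20, Akr1c21, Akr1cl and Akr1d1, 1 was detected. Akr1c14, which reduces the ketone of steroids such as dihydroprogesterone, had 1.15, 3.42, 1.92 and 2.40 CPM from 27 reads. Akr1c12, Akr1c18, Akr1c20, Akr1c21 and Akr1cl had 0 reads of 12485057 in the 4 libraries. Taken as up to 3 reads, this allows 0.240 CPM over the libraries together. The exact Poisson 95% interval of the pooled reads ends at 0.295 CPM. Akr1c6 and Akr1c19 had 1 read each, and Akr1c13 and Akr1d1 had 2. All 10 together summed to 2.69 ± 0.297 CPM. Of 11 genes of neurosteroid synthesis, a list that includes Akr1c14 and Akr1c18, 6 were detected, and 5 of the 9 that are no members of the families. It was led by Tspo with 39.5, Srd5a3 with 17.97 and Srd5a2 with 4.08 CPM. The lowest detected was Srd5a1 with 1.35 CPM, and Hsd3b1, Hsd17b1 and Akr1c18 were at 0.

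Alcohol dehydrogenases were represented by Adh5, with a smaller level of Adh1. Adh5 oxidises the glutathione adduct of formaldehyde and reduces nitrosoglutathione. It had 62.2, 66.8, 54.4 and 63.9 CPM, a mean of 61.8 ± 3.78 CPM and 78.4% of its family's sum, and the library pairs overlapped. Adh1, the class I enzyme that oxidises ethanol and retinol, had 15.2, 18.6, 13.8 and 15.7 CPM, with overlap between the pairs. Adh5 exceeded Adh1 by 1.90 ± 0.04 on the log2 scale of CPM per kb and 3.94 times in pooled reads per kb (3.37 to 4.64), and by 0.62 on the log2 scale per exon length. Adh7, which oxidises retinol in epithelia, had 10 reads and a mean of 0.778 CPM, 3.18 ± 0.02 below Adh1 on the log2 scale. Over single libraries this difference ran from 2.67 to 3.71. Pooled reads of Adh1 per kb were 19.6 times those of Adh7 (10.5 to 41.6). Adh6b had 3 reads, Adh4 had 2 and Adh6a none. The 6 genes lie in 1 cluster on chromosome 3 of 238 kb, with Adh7 at its start and Adh5 at its end. Adh5 and Adh1 share no window of 28 bases, and the 60 bases in which they differ most, with 30 differences in capitals, lie in exon 8 of each on the plus strand (chr3:138454707-138454766 and chr3:138289841-138289900).
Adh5: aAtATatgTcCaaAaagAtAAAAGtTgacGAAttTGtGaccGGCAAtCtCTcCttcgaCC
Adh1: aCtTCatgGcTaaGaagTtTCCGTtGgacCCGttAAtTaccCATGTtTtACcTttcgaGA

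Across the genome, 28 members lie within 1000 kb of another member and 16 stand alone. Of the 28 clustered members 14 were detected, and of the 16 standing alone 13 were, beside 63.8% of all protein-coding genes. Within each cluster 1 gene carried most of the level. On chromosome 13 a cluster of 560 kb holds 9 members, of which Akr1c14 and Akr1e1 were detected and 7 had at most 3 reads. On chromosome 6, Akr1b3 carried 72.5% of the summed CPM of its 4 genes. On chromosome 19, Aldh1a1 carried 93.8% of the sum with Aldh1a7, and Aldh3b1 94.7% of that with Aldh3b2 and Aldh3b3. On chromosome 11, Aldh3a2 carried 98.0% of the sum with Aldh3a1, and on chromosome 4 Akr7a5 carried 57.1% of the sum with Aldh4a1, which belongs to another family.

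**Figure D3:**
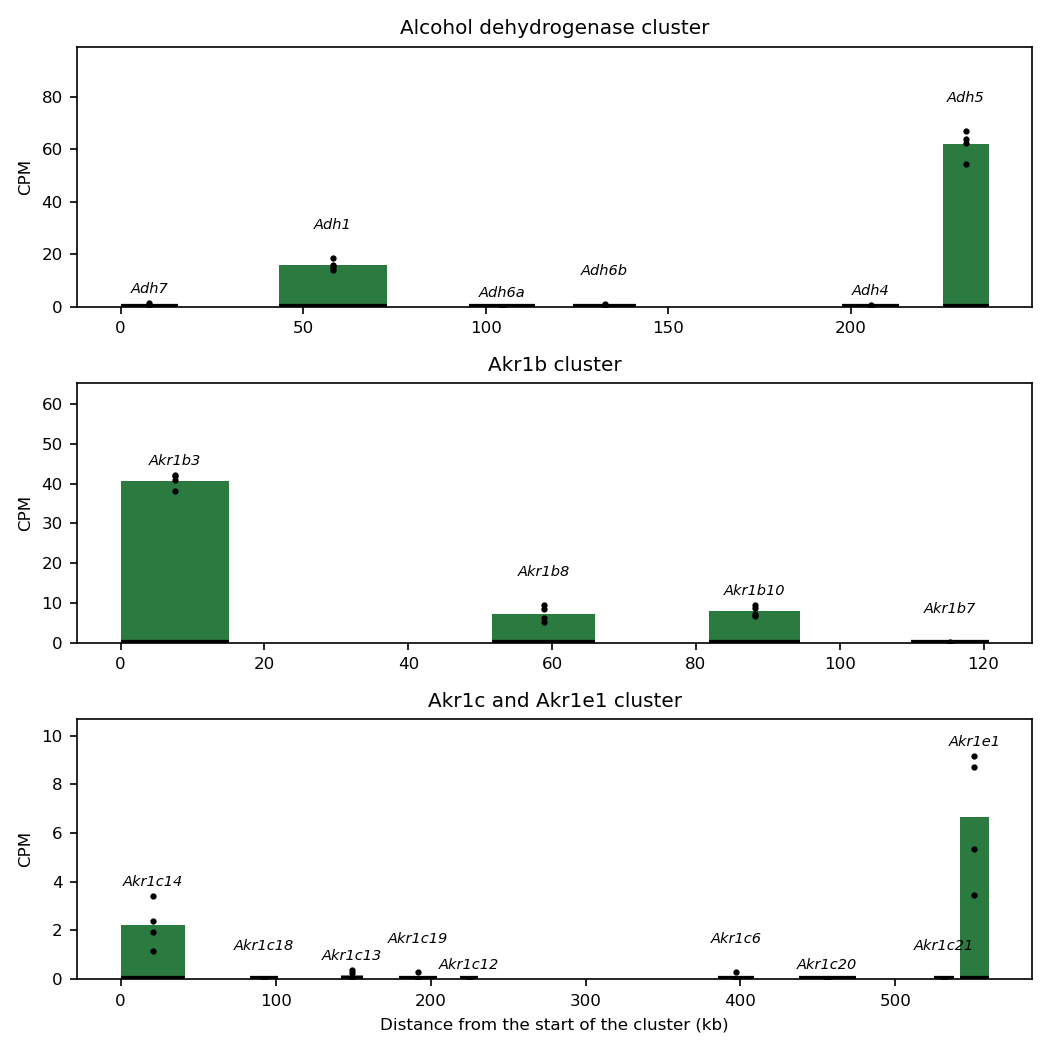
Mean CPM (bars, on a linear axis from 0, each as wide as the gene) and single libraries (points) along the 3 clusters with the most members, against the distance in kb from the start of the cluster. Green bars are detected members, and black lines at the base mark the genes. In each cluster 1 gene at an end is highest: Adh5, Akr1b3 and Akr1e1.

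Retinoic acid is made from retinaldehyde by Aldh1a1, Aldh1a2 and Aldh1a3 of the ALDH1A group. Aldh1a1, the cytosolic enzyme on chromosome 19, had 76.0, 72.9, 49.4 and 47.4 CPM, a mean of 61.4 ± 18.4 CPM. Replicates 1 and 2 were both above replicates 3 and 4, by 1.54 times. Aldh1a2, the enzyme best known from embryonic retinoic acid synthesis, had 34.1, 40.6, 28.3 and 30.4 CPM, and its pairs did not overlap either, with a ratio of 1.27. Aldh1a3 had 11.2, 11.0, 7.66 and 7.99 CPM, again higher in replicates 1 and 2. Aldh1a1 exceeded Aldh1a2 by 0.88 ± 0.20 and Aldh1a3 by 2.53 ± 0.12 on the log2 scale of CPM per kb. Divided by exon length in place of coding length, the first of these contrasts turned to -0.24, and without division by length it was 0.84. The order of Aldh1a1 and Aldh1a2 thus depends on whether exon length is used, while their coding lengths are 1503 and 1554 bases.

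Aldh1a7, a rodent relative next to Aldh1a1 on chromosome 19, had 5.73, 5.32, 3.45 and 1.87 CPM from 50 reads. Aldh1a1 exceeded it by 3.52 ± 0.13 on the log2 scale of CPM per kb and 15.3 times in pooled reads per kb (11.5 to 20.8). The coding sequences are 91.9% identical, 310 of the 1476 windows are shared, and the longest common run is 100 bases across exons 8 and 9 of Aldh1a1. A footprint from that run can come from either gene, while footprints from exon 4 can be placed, as the 16 capitals in these 60 bases show (chr19:20619973-20620032 for Aldh1a1, plus strand, and chr19:20719252-20719311 for Aldh1a7, minus strand).
common run: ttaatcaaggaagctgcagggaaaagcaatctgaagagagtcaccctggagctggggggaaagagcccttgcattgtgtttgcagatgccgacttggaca
Aldh1a1: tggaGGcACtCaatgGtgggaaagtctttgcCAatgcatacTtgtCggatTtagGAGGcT
Aldh1a7: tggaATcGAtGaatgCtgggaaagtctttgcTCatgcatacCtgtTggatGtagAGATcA
No reads of Aldh1a1 or Aldh1a7 were split into fractions in the deposited values: both were whole in all 4 libraries within 0.02 reads.

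Other genes of retinoid handling were detected in 18 of 22 cases, at a median of 12.6 CPM per kb. The highest by CPM were Stra6, a membrane receptor for the retinol-carrying protein, with 55.3, Rdh11 with 49.7 and Dhrs3 with 48.9 CPM, the latter pair being reductases or dehydrogenases of retinal and retinol. The lowest detected was Crabp1, a retinoic acid carrier, with 1.54 CPM. Of the enzymes that break retinoic acid down, Cyp26b1 had 20.2 CPM, and Cyp26a1 and Cyp26c1 had 0.238 and 0.362 CPM.

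Fatty and aromatic aldehydes are the substrates of the ALDH3 enzymes. Aldh3a2, the fatty aldehyde dehydrogenase deficient in Sjögren-Larsson syndrome, had 68.0, 69.1, 62.4 and 57.8 CPM. Replicates 1 and 2 were above 3 and 4, by 1.14 times. Aldh3a1, abundant in cornea, lies next to it on chromosome 11 and had 1.72, 1.14, 1.15 and 1.33 CPM from 17 reads. Aldh3a2 exceeded it by 4.38 ± 0.06 on the log2 scale of CPM per kb. Aldh3b1 had 13.2, 17.5, 6.90 and 13.9 CPM, with replicate 3 low and the pairs overlapping. Aldh3b2 and Aldh3b3 had 8 reads and 1 read, and as 645 windows are common to both, some of these reads may belong to either.

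The dehydrogenases of amino acid and amine metabolism varied little between libraries. Their 7 genes summed to 245, 245, 239 and 244 CPM in replicates 1 to 4, and 6 were detected. Aldh6a1, which acts in valine and thymine breakdown, had 75.7, 68.7, 67.4 and 71.1 CPM. Aldh7a1, which acts in lysine breakdown and is mutated in pyridoxine-dependent epilepsy, had 58.8, 61.5, 64.0 and 61.6 CPM. Aldh9a1, an enzyme of carnitine synthesis, had 44.2, 46.7, 42.1 and 46.4 CPM, and Aldh2 exceeded it by 2.59 ± 0.12 on the log2 scale of CPM per kb. For Aldh6a1 and Aldh9a1 the pairs of libraries overlapped, and for Aldh7a1 replicates 1 and 2 were slightly below 3 and 4, with a ratio of 0.958. Aldh8a1, an enzyme of tryptophan breakdown, had 1 read. All 17 genes of branched-chain amino acid breakdown found in the table were detected, led by Dld with 86.5, Aldh6a1 with 70.7 and Mut with 63.4 CPM, and the lowest was Mccc2 with 16.5 CPM.

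Proline synthesis and breakdown are each represented by 1 member. Aldh18a1, which makes the proline precursor pyrroline carboxylate from glutamate, had 39.6, 40.6, 38.3 and 39.4 CPM, a mean of 39.5 ± 0.867 CPM, with both values of replicates 1 and 2 just above the others. Aldh4a1, which oxidises the same compound back to glutamate, had 17.1, 16.9, 17.6 and 14.4 CPM. Aldh18a1 exceeded Aldh4a1 by 0.71 ± 0.03 on the log2 scale of CPM per kb. Aldh4a1 was the only member with values that were not whole reads, and 91.9% of its coding windows also belong to Gm21969, a gene annotated across it on the same strand (chr4:139603186-139662691). Gm21969 held 2, 15, 0 and 10 reads after rounding to whole reads. With its value added to Aldh4a1, the contrast was 0.54. Of 10 genes of proline and glutamate metabolism, these 2 enzymes included, 9 were detected, with Oat at 204 and Glud1 at 128 CPM among the highest. Pycr1 was the lowest detected with 5.05 CPM, and Prodh2 was at 0.

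Aldh5a1, which oxidises succinic semialdehyde in the last step of GABA breakdown, had 9.46, 11.0, 9.58 and 10.4 CPM. Abat, the transaminase that makes its substrate, had 88.3, 79.7, 75.8 and 83.1 CPM. The level of Aldh5a1 lay 2.90 ± 0.03 below Abat on the log2 scale of CPM per kb, and pooled reads of Abat per kb were 8.53 times those of Aldh5a1 (7.09 to 10.4). All 7 genes of the GABA list were detected. Abat was the highest with 81.8 CPM, the transporter Slc6a13 had 51.2 CPM, and Gad2, a GABA-making enzyme, was the lowest with 1.45 CPM.

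The folate enzymes oxidise formyltetrahydrofolate, Aldh1l1 in the cytosol and Aldh1l2 in mitochondria. Aldh1l1, in the brain a marker of astrocytes, had 24.4, 20.5, 24.1 and 18.7 CPM. Aldh1l2 had 6.02, 5.32, 4.98 and 5.60 CPM, below Aldh1l1 in every library. The difference on the log2 scale of CPM per kb was 1.66, 1.55, 1.83 and 1.39 in replicates 1 to 4. Of 14 folate genes 13 were detected, led by Mthfd1 with 63.5, Mthfd1l with 32.8 and Shmt2 with 23.8 CPM, and Shmt1 was among the lowest with 2.38 CPM. Aldh16a1, to which no catalytic role is assigned here, had 16.9, 13.3, 9.96 and 13.1 CPM.

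**Figure D4:**
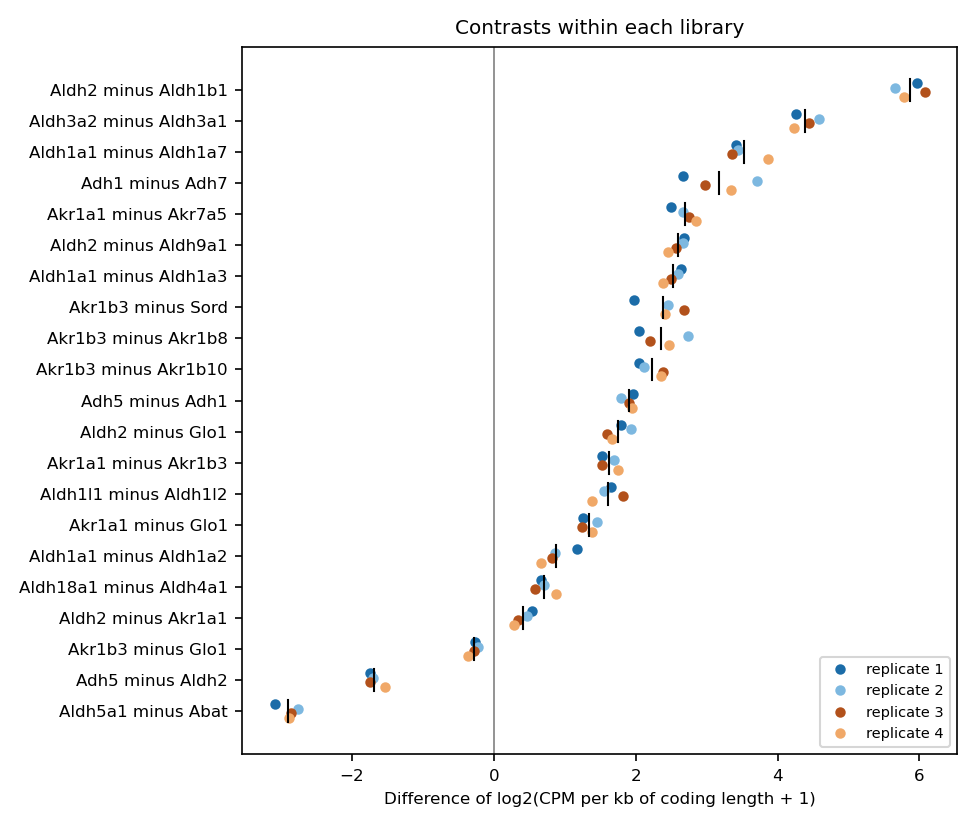
Difference of log2(CPM per kb of coding length + 1) between the genes of each of the 21 pairs, 1 point per replicate, with a black bar at the mean. Each pair lies on 1 side of 0 in all 4 libraries, from Aldh2 minus Aldh1b1 at 5.87 to Aldh5a1 minus Abat at -2.90.

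The enzymes were set beside the main route of methylglyoxal removal. Glo1, the first glyoxalase, had 29.5, 28.1, 29.9 and 28.8 CPM, or 52.7 CPM per kb because its coding sequence is short. Akr1a1 exceeded Glo1 by 1.34 ± 0.03 and Aldh2 exceeded it by 1.74 ± 0.16 on the log2 scale of CPM per kb. These sizes depend on length: without division they were 2.14 and 3.22, and with exon length 3.84 and 4.02. Akr1b3 lay 0.29 ± 0.05 below Glo1, and this sign depends on length: without division it was 0.47 above and with exon length 0.78 above. Of Glo1's coding windows 87.6% also occur in Gm13443, which held 7, 8, 4 and 5 reads. All 5 genes of the glyoxal route found in the table were detected, led by Park7, a protein with reported glyoxalase activity, with 92.0, the second glyoxalase Hagh with 56.3 and Esd with 32.8 CPM. Ldhd, a dehydrogenase of lactate in its D form, was the lowest with 11.0 CPM.

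Akr1b3 opens the polyol pathway and Sord, sorbitol dehydrogenase, closes it. Sord had 11.2, 7.59, 6.51 and 7.19 CPM, and Akr1b3 exceeded it by 2.38 ± 0.24 on the log2 scale of CPM per kb, or by 0.42 per exon length. Of Sord's coding windows 81.8% occur in other genes, and those found in the table had 0 reads. All 5 genes of the list were detected, led by the inositol transporter Slc5a3 with 99.5, Akr1b3 with 40.8 and the fructose kinase Khk with 12.04 CPM, and Slc2a5, a fructose transporter, was the lowest with 3.81 CPM.

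Carbonyl metabolism outside the named families was also covered. All 18 genes of a list of other reductases and dehydrogenases found in the table were detected. It was led by Tecr with 958, Hsd17b12 with 154 and Por with 132 CPM, and Dhrs11 was the lowest with 4.61 CPM. Tecr and Hsd17b12 act in fatty acid elongation. Not every gene of this list is a carbonyl reductase, and Tecr and Por are not. Kcnab1, Kcnab2 and Kcnab3, potassium channel subunits with an aldo-keto reductase fold, had 90.1, 245 and 1.56 CPM, so the highest gene with that fold was Kcnab2 at 214 CPM per kb, above Akr1a1 at 135. Of 13 other enzymes that oxidise or produce aldehydes, 10 were detected, led by Sgpl1 with 56.2, Maoa with 53.7 and Aox1 with 45.4 CPM, and the lowest detected was Aox4 with 2.14 CPM, while Aox2 was at 0. All 6 genes that handle formaldehyde or glutathione were detected, led by Gclm with 62.4, Adh5 with 61.8 and Gsr with 48.7 CPM, and Gss was the lowest with 19.9 CPM. Of 14 genes of the NRF2 response, to which Nqo1 and Gclm belong, 13 were detected, led by Nfe2l2 itself with 82.8, Me1 with 72.4 and Hmox1 with 64.3 CPM, and the lowest detected was Nqo1 with 11.5 CPM.

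Between the 2 pairs of libraries, 7 of the 18 members with at least 10 CPM had both values of replicates 1 and 2 above both of replicates 3 and 4, where 24.9% of the 8673 coding genes at that level did. These were Aldh2, Aldh3a2, Aldh1a1, Aldh18a1, Aldh1a2, Akr7a5 and Aldh16a1. In the other direction there was 1 member, Aldh7a1, where 27.2% of coding genes lay that way, and 10 members overlapped. Pair means differed by at least 1.25-fold for 4 members, Aldh1a1, Aldh3b1, Aldh16a1 and Aldh1a2, beside 18.4% of coding genes, and 3 of these 4 had no overlap. The 4 ratios were 1.54, 1.48, 1.31 and 1.27, all higher in replicates 1 and 2. None of the 27 detected members had 1 library standing apart from the other 3 by Dixon's ratio, beside 4.65% of detected coding genes. The SD of log2 CPM over the 4 libraries had a median of 0.13 for the 16 members from 10 to 100 CPM, beside 0.16 for coding genes of that level, and of 0.31 for both below 10 CPM.

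Markers of some other cell types moved along the same pairs. All 10 skeletal muscle markers were detected and all 10 were higher in both replicates 1 and 2 than in 3 and 4, with sums of 3826, 3872, 2389 and 2366 CPM, a ratio of 1.62 between pairs. The 8 adipocyte markers, of which 7 were detected, summed to 398, 414, 285 and 282 CPM, a ratio of 1.43, and 5 of them lay higher in replicates 1 and 2 without overlap. Red blood cell markers had a ratio of 1.23, with 7 of 8 detected and 6 higher in this way. Macrophage markers had a ratio of 1.13, with all 8 detected and 7 higher. Among all coding genes with at least 10 CPM, 24.9% were higher in replicates 1 and 2 without overlap and 27.2% were lower. In each of the other lists some markers were higher and some lower, and the neuronal ones were mostly lower. Of the 8 endothelial and mural markers, all detected, 3 were higher and 1 lower in replicates 1 and 2, with a ratio of 1.14. Of the 10 Schwann cell markers 4 were higher and 4 lower, with a ratio of 0.819 for their sum. Of the 8 matrix fibroblast markers 3 were higher and 4 lower, with a ratio of 0.907 carried by the collagens Col1a1, Col1a2 and Col3a1. Of the 8 spinal cord markers, 6 of them detected, 3 were higher and 2 lower, and the ratio of 1.32 was carried mostly by Gfap. Of the 12 neuronal markers 1 was higher and 8 were lower, with a ratio of 0.975, and of the 8 satellite glial markers 1 was higher and 3 lower, with a ratio of 0.986. Of the 8 liver markers 2 were higher and 1 lower, and Apoa2 and Cps1 were at 0 in all libraries. No marker of the other cell type lists was. The part of these cell types in the differences of Aldh1a1, Aldh1a2, Aldh1a3 and Aldh2 between pairs was not tested. In whole ganglia fewer cells of a type and fewer ribosomes per cell cannot be told apart.

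**Figure D5:**
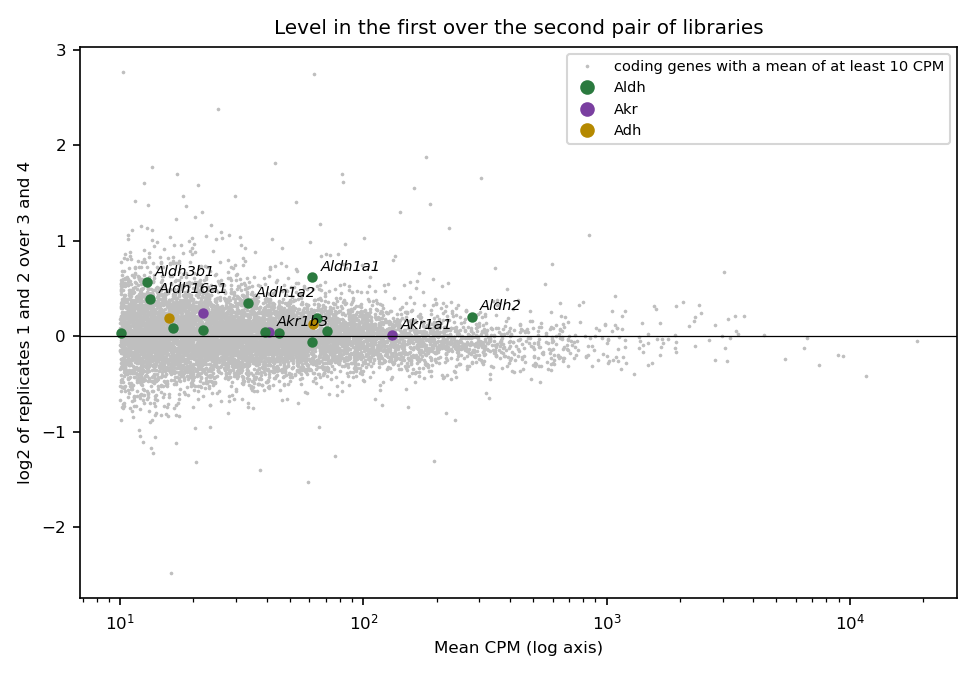
Ratio of the mean of replicates 1 and 2 to that of replicates 3 and 4 (log2) against mean CPM (log axis) for the 8673 coding genes with at least 10 CPM (grey) and the 18 members at that level (colours by family). Aldh1a1 at a ratio of 1.54 is the highest member, and Akr1a1 and Akr1b3 lie at 1.01 and 1.03.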

How the data were processed

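Footprints were selected at 28 to 34 nt on 15% gels, per the labels' protocols. The tools named with GRCm38, per the submitters' processing notes, are Cufflinks 2.2.1, TopHat2 2.1.1, FastQC 0.11.5 and Bowtie2 2.2.9. No source used here gives the counting rule, the strand setting or the treatment of reads with several matches. The authors' deposited columns are named for TPM but behave as CPM: 96.5% to 97.0% of the values above 0 were whole multiples of 1 step per library (tolerance 0.02 steps), at every gene length. The analysis therefore took them as CPM not divided by length, and 1000000 divided by the step gave the library reads.

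Rows with the same symbol were summed. Coding and exon lengths, positions and sequences came from GENCODE M21 (GRCm38), which held 48052 of the gene IDs and lacked 379. The longest coding sequence of a gene was used, and all its reads were taken to lie there, which was not checked. A gene was called detected from a mean of 1 CPM. Contrasts used log2(CPM per kb + 1) and the exact sign-flip permutation test, and read ratios have exact binomial 95% intervals. Intervals and floors cover counting error only. Windows of 28 bases were matched to annotated transcripts on the same strand. The chi-square test of library pairs used genes whose reads, summed over both libraries, reached 20. With 1 group, no count model between groups could be fitted. Steps were tested on simulated data. Python 3.11.15, numpy 2.4.6, pandas 2.3.3, scipy 1.17.1, matplotlib 3.10.9 and biopython 1.88 were used.

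The members, gene lists and gene pairs were chosen with earlier results of these data known. Every member was counted. Values per library were given for the 3 family markers Aldh2, Akr1a1 and Akr1b3, the genes of the pairs and the 15 highest members, and of each pathway list the 3 highest detected members, the lowest detected one and those at 0 were named, except a few genes that are not reported here. Other members and genes with values, such as Akr1e1 and Cyp26a1, were named after their values were seen. Alternatives left out each replicate, treated the 4 libraries as 4 units, changed the length, the pseudocount (0.1 or 5), the minimum or the library total, and kept 1 row per symbol.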

Additional observations from a re-analysis of the deposited data

How the results depend on the processing

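Over 10 alternatives for each of the 21 contrasts, 207 of 210 values kept their sign. Most of these outcomes were fixed in advance, because every contrast had 1 sign in all 4 libraries. Leaving out a replicate, taking 4 units or changing the pseudocount could therefore not turn a sign, and the count does not measure robustness. Akr1b3 minus Glo1 turned from -0.29 to 0.47 when values were not divided by length and to 0.78 when divided by exon length, and Aldh1a1 minus Aldh1a2 turned from 0.88 to -0.24 when divided by exon length. A kept sign does not mean a kept size: exon length moved 16 of 21 contrasts by more than 1.5-fold, among them Akr1b3 minus Akr1b8 from 2.36 to 0.02, Akr1b3 minus Sord from 2.38 to 0.42 and Adh5 minus Adh1 from 1.90 to 0.62. No division by length moved 4, a pseudocount of 5 moved 5 and one of 0.1 moved 2, and leaving out a replicate moved none. The summed level of the families was 1044 to 1059 CPM with 1 replicate left out, and rose from 1051 to 1352 CPM when mitochondrial and noncoding genes were left out of the library total, which makes every value larger by construction. Detected members numbered 27 to 28 with 1 replicate left out, 33 at a minimum of 0.1 CPM, 18 at a minimum of 10 CPM and 29 when a value above 0 in every library was asked for. An alternative chosen after seeing the data added the values of genes that share over 80% of the coding windows of Akr1b3, Aldh4a1, Glo1 or Sord, and all 21 signs held. Contrasts that hold none of Akr1b3, Aldh4a1, Glo1 and Sord could not change here. Of 191 list medians under alternatives, 74 moved by more than their SD over the pair means. No paired analysis was possible because the libraries form 1 group. With 2 pair means no contrast can pass a threshold, and members with under 50 reads, such as Aldh1b1, Akr1c14 and Aldh3a1, are limited by depth.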
